A study of Mus musculus with 6 samples.

Results

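Transcripts of surface proteins that mediate adhesion or mark the stage of red cell development were examined in mouse fetal liver erythroblasts cultured with or without excess cholesterol. The 9 genes were Cd44, Itga4, Itgb1, Cd36, Cd24a, Cd47, Icam4, Kel and Ermap, chosen by symbol as erythroid adhesion and stage markers, with earlier results of these data known. All 9 were found among the 17463 genes measured, and all 9 passed the filter on low counts, which left 11277 genes for testing. TER119-negative erythroblasts were purified from fetal livers of C57BL/6J mice and grown in medium containing erythropoietin (Epo), the hormone that drives red cell maturation. The 3 control samples received no cholesterol and the 3 cholesterol samples received 40 µM, each for 30 h. The control samples are labelled untreated, and the study's text calls them vehicle-treated. According to the study, TER119+ cells (TER119 is an epitope that appears on maturing red cells) were sorted before RNA extraction. The samples of each group are numbered 1 to 3, and the labels do not say whether they came from separate animals or cultures. The study describes the experiments grouped with its RNA-seq as independent, without saying what a numbered sample is, so the p-values measure the spread between these samples, which may be technical.

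Erythroblasts mature in the fetal liver in contact with macrophages, in structures called erythroblastic islands, and lose most adhesion receptors as they become reticulocytes. CD44, which binds hyaluronan, is abundant on early erythroblasts and declines as they mature, and is therefore used with TER119 to stage them. Integrin α4 (Itga4) and β1 (Itgb1) pair as a receptor for VCAM1 and fibronectin that holds erythroblasts to island macrophages and to matrix. ICAM4 is an adhesion ligand that binds integrins, CD47 is the signal by which a red cell restrains phagocytosis through SIRPα on macrophages, CD36 is a scavenger receptor for fatty acids and thrombospondin, and CD24 is a small glycosylphosphatidylinositol-anchored glycoprotein. KEL is the metalloprotease that carries the Kell blood group, and ERMAP is a membrane protein of the immunoglobulin superfamily that carries the Scianna blood group. CD44 and ICAM4 carry blood groups as well, Indian and LW.

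Promoter sequences are shown for Cd44, Icam4, Kel and Ermap because these 4 were the genes whose 250 bases before the RefSeq transcript start held a core motif of GATA1, the master transcription factor of red cells. They come from RefSeq, assembly GRCm38.p6, the build named in the submitters' processing notes. Each is printed 5′ to 3′ on the strand of the gene, with capitals marking AGATAA or TGATAA, or their reverse complements.
Cd44 (chr2:102901666-102901915, minus strand): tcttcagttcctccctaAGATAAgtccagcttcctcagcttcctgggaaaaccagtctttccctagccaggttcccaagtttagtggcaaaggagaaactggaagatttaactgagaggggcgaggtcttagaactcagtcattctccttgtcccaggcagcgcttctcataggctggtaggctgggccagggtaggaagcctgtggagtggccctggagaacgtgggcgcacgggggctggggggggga
Icam4 (chr9:21029182-21029401, plus strand): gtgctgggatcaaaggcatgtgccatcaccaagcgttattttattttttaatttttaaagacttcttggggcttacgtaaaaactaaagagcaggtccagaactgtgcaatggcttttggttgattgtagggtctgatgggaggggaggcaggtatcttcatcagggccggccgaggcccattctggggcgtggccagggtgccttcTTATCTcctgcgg
Kel (chr6:41704326-41704575, minus strand): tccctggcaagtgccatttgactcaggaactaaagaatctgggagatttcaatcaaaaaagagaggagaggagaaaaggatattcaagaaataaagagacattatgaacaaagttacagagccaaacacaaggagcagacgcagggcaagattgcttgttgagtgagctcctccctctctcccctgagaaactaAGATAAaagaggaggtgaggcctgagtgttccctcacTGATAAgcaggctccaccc
Ermap (chr4:119189996-119190245, minus strand): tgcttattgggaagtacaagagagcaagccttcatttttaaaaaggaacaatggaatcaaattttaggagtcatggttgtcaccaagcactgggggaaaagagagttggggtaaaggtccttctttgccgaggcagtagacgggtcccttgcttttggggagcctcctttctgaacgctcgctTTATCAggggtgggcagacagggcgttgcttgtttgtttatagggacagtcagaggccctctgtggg
GENCODE places the starts of Icam4, Kel and Ermap 59, 14 and 16 bases upstream of the RefSeq ones, so the last bases of these stretches, and the Icam4 match, lie inside the GENCODE genes. The Icam4 stretch was ended 31 bases before the RefSeq start to limit that overlap. Kel held both letter strings, at 56 to 51 and 19 to 14 bases before its start. Icam4 held a reverse complement at 43 to 38 bases and Ermap at 67 to 62 bases before theirs. The Cd44 match lay further away, 233 to 228 bases before its start. Of the 9 genes, 8 had a promoter in the table used, and Cd24a had none. The stretches searched for Cd36 and Cd47 lay before starts inside their gene spans, so their outermost starts were not searched. The last few bases of the Cd44 stretch lie inside the gene span given below. The same letters on either strand occurred in 16.6% of 32851 promoters of the same length. CCNCNCCC, a core of the motif of the erythroid factor KLF1, occurred in 4 of the 8 genes and in 45.9% of all promoters. The sterol response element bound by SREBP factors, searched on both strands by its classical consensus, occurred in none of the 8 and in 0.2% of all promoters. These matches describe letters and not binding.

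Sequencing gave 19826849 to 20061724 expected counts per sample, so 3 counts correspond to about 0.15 CPM (counts per 1e6 counts). Haemoglobin genes took 12.5% to 17.9% of the counts. Erythroblast markers were abundant in every sample, and the 9 listed for this cell type summed to between 98080 and 146800 CPM. Markers of other blood cells were detected as well, and those of granulocytes and macrophages differed most by replicate number. The 10 granulocyte markers summed to 72.6, 270 and 728 CPM in controls 1 to 3 and to 44.0, 116 and 304 CPM in cholesterol samples 1 to 3. The 12 macrophage markers summed to 20.0, 47.7 and 154 CPM in the controls and to 14.1, 21.4 and 69.3 CPM in the cholesterol samples. Both lists were highest in the samples numbered 3 and were lower with cholesterol in each of the 3 pairs. All markers of both lists reached 3 counts in at least 1 sample, from Ngp (mean 70.3 CPM) to Ctsg (2.94 CPM) for granulocytes and from Cd68 (14.8 CPM) to Spic (0.06 CPM) for macrophages. Hepatocyte markers summed to between 67.4 and 275 CPM, and lymphoid markers to at most 4.72 CPM. In bulk RNA, fewer cells of a type and less RNA per cell cannot be told apart.

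The 9 genes spanned a wide range of levels. Cd24a had the highest level per transcript length, at 2760 ± 126 FPKM (fragments per kilobase of transcript and per 1e6 mapped fragments, SD over the 6 samples), which placed it 12th of the 11277 genes tested. Kel followed at 451 ± 32.8 FPKM and Ermap at 286 ± 23.6 FPKM. Cd47 at 170 ± 13.9 FPKM and Icam4 at 167 ± 12.3 FPKM came next, and these were the only neighbours in the order whose ranges over the samples overlapped. The integrin subunits were lower, Itga4 at 52.1 ± 3.76 FPKM and Itgb1 at 31.6 ± 4.88 FPKM. Cd44 stood at 18.0 ± 2.34 FPKM, and Cd36 at 1.17 ± 0.9747 FPKM was 15.4 times lower than Cd44. Transcripts of the blood group genes Kel and Ermap and of the glycoprotein gene Cd24a were thus above those of the receptors for matrix and island macrophages on this scale. The order was read from FPKM because CPM does not correct for length.

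**Figure D1:**
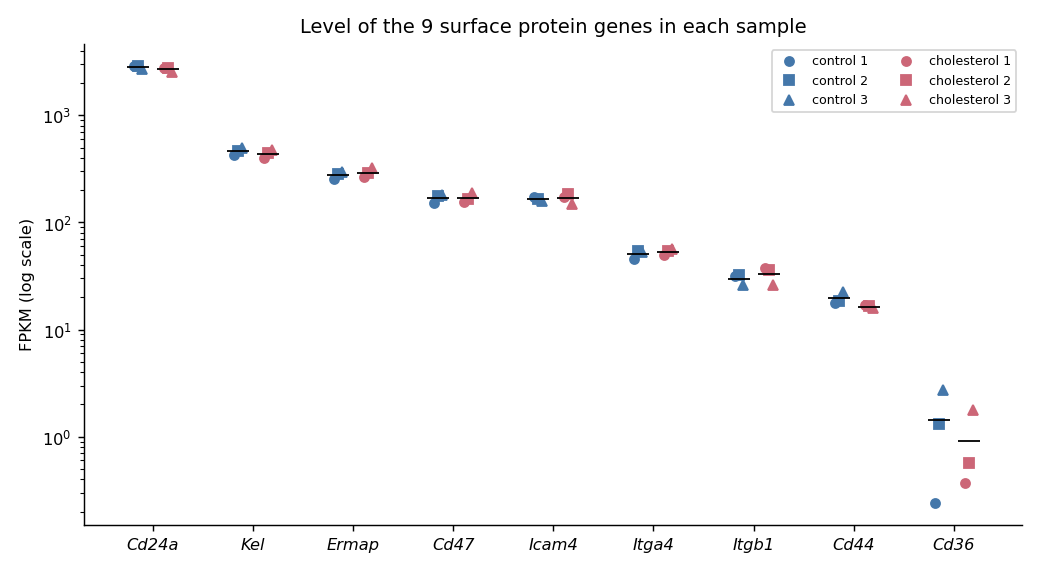
FPKM (log axis) of each of the 9 genes in the 3 control (blue) and 3 cholesterol (red) samples. Marker shape gives the replicate number and the black lines are group means. Levels fall from 2760 FPKM for Cd24a to 1.17 FPKM for Cd36, and the groups lie close together for most genes.

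The study asked what excess cholesterol does to erythroblasts. For the transcripts of these surface proteins the data showed small differences. Protein at the cell surface was not measured, and transcript levels need not follow it. The mean CPM with cholesterol differed from that of the controls by −18.1% for Cd44, −7.12% for Cd24a, −6.14% for Kel and 9.02% for Itgb1. The differences were 3.42% for Itga4, 2.25% for Ermap, −2.15% for Cd47 and −0.661% for Icam4. Cd36 differed by −37.3% but varied 12.3-fold between samples. Without regard to replicate number, none of the 9 passed an adjusted p of 0.05 (edgeR quasi-likelihood test, Benjamini-Hochberg over all genes). In that fit 1 of the 11277 genes passed, or 0.00887%. At an unadjusted p under 0.05 it held Cd44 alone of the 9, against 2.63% of all genes. DESeq2 called none of the 9 either, and 0.246% of all genes. When the replicate number was included as a block, 1 of the 9 passed, Cd44, which was lower. In that fit 6.85% of all genes passed, 5.2% as lower and 1.65% as higher, so 1 of 9 does not set these genes apart from the background. At an unadjusted p under 0.05 the blocked fit held 5 of the 9 (Cd44, Cd24a, Kel, Cd36 and Itgb1), against 19.6% of all genes. With DESeq2 and the block none of the 9 passed, against 2.53% of all genes.

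Cd44 measured 82.0, 82.5 and 105 CPM in controls 1 to 3 and 74.4, 73.1 and 73.4 CPM in the cholesterol samples. Control 3 was the highest, the cholesterol samples were nearly equal, and the groups did not overlap. Its log2 fold change was −0.29 ± 0.11 (SE, n = 3 per group, edgeR adjusted p = 0.9998, unadjusted p = 0.0364) without the block. With the block it fell by 0.28 ± 0.07 on the log2 scale (SE, edgeR adjusted p = 0.0400), with a 95% interval of −26% to −8.25%. The difference within pairs was −0.14, −0.18 and −0.52 for numbers 1, 2 and 3, so pair 3 showed the largest. Without control 3 the log2 fold change was −0.16, and without both samples numbered 3 it was −0.16 with an edgeR adjusted p of 0.0614 in the blocked fit. Of the 9 fits with the block, Cd44 passed in 4, and its adjusted p over all 22 alternatives ranged from 2.55e-05 to 1. The blocked call was also lost without both samples numbered 2 (edgeR adjusted p = 0.160), with upper quartile normalization (0.0748), in DESeq2 with the block (adjusted p = 0.0742) and in limma on log2(FPKM + 1) with the block (adjusted p = 0.302). Control 3, the sample with the highest Cd44, also had the highest granulocyte and macrophage marker sums. The part of these cells in the Cd44 difference was not tested. Among the cholesterol samples, Cd44 stayed between 73.1 and 74.4 CPM while the granulocyte sum ranged from 44.0 to 304 CPM. Its gene lies at chr2:102811141-102901669 on the minus strand.

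Itga4, the α4 integrin subunit, measured 470, 534 and 551 CPM in the controls and 493, 536 and 579 CPM with cholesterol. The groups overlapped, and the samples numbered 1 were the lowest of each. The log2 fold change was 0.05 ± 0.09 (SE, edgeR adjusted p = 0.9998), and with the block the 95% interval of the difference was −2.37% to 9.59% (edgeR adjusted p = 0.561). All 3 pairs were higher with cholesterol, by 0.01 to 0.07 on the log2 scale. Its gene, at chr2:79255426-79333114 on the plus strand, shares 908 bases of exon with the antisense gene Cerkl. The library protocol does not state that strand was kept, so reads of this overlap cannot be told apart. Cerkl had a mean expected count of 335 against 10480 for Itga4.

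Itgb1, the β1 subunit, measured 136, 136 and 116 CPM in the controls and 159, 151 and 114 CPM with cholesterol. Cholesterol samples 1 and 2 were above all controls, whereas sample 3 was the lowest of the 6, so the groups overlapped. The log2 fold change was 0.12 ± 0.14 (SE, edgeR adjusted p = 0.9998) and 0.12 ± 0.05 with the block (edgeR adjusted p = 0.199). Without both samples numbered 3 the blocked value was 0.18 and passed the threshold (edgeR adjusted p = 0.00698). Leaving out single samples moved the value without the block, to 0.033 without cholesterol 1, 0.053 without control 3, 0.071 without cholesterol 2 and 0.26 without cholesterol 3. Its differences within pairs 1, 2 and 3 were 0.22, 0.15 and −0.03. Its gene lies at chr8:128685654-128733579 on the plus strand.

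Because the α4 and β1 subunits form one receptor, the ratio of Itga4 to Itgb1 was taken per sample from FPKM. It was 1.46, 1.66 and 2.01 in controls 1 to 3 and 1.32, 1.502 and 2.16 with cholesterol. The samples numbered 3 had the highest ratio and those numbered 1 the lowest in both groups, and the groups overlapped. The difference of the mean log2 ratio was −0.06 (exact permutation test, two-sided, p = 0.8, n = 3 per group, where 0.1 is the smallest p possible). Leaving out control 3 or cholesterol 1 turned its sign, to 0.06 and 0.09.

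Cd36, the scavenger receptor, measured 0.657, 3.57 and 8.10 CPM in the controls and 1.03, 1.53 and 5.16 CPM with cholesterol. These rest on 13 to 156 expected counts per sample. The samples numbered 3 were the highest of each group and the groups overlapped throughout. The log2 fold change was −0.67 ± 0.95 (SE, edgeR adjusted p = 0.9998) and −0.62 ± 0.26 with the block (edgeR adjusted p = 0.196). Pair 1 was higher with cholesterol, by 0.66, and pairs 2 and 3 were lower, at −1.22 and −0.65 on the log2 scale. Without control 3 the fold change turned positive, to 0.28, and without both samples numbered 1 the blocked value of −0.85 passed the threshold (edgeR adjusted p = 0.0181). Ordered by Cd36, the samples ranked as they did by the granulocyte and macrophage sums, except that control 1 and cholesterol 1 changed places. Of all genes tested, the 3 whose log2 CPM ran most like Cd36 over the 6 samples were Ppp6r3 (Pearson r = 0.998), Lcn2 (r = 0.997) and Pde1b (r = 0.995). Lcn2 encodes a neutrophil granule protein and is one of the 10 granulocyte markers. These correlations are descriptions, the best of 11276 over 6 samples that share their replicate numbers in pairs. The part of other blood cells in the Cd36 values was not tested.

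**Figure D2:**
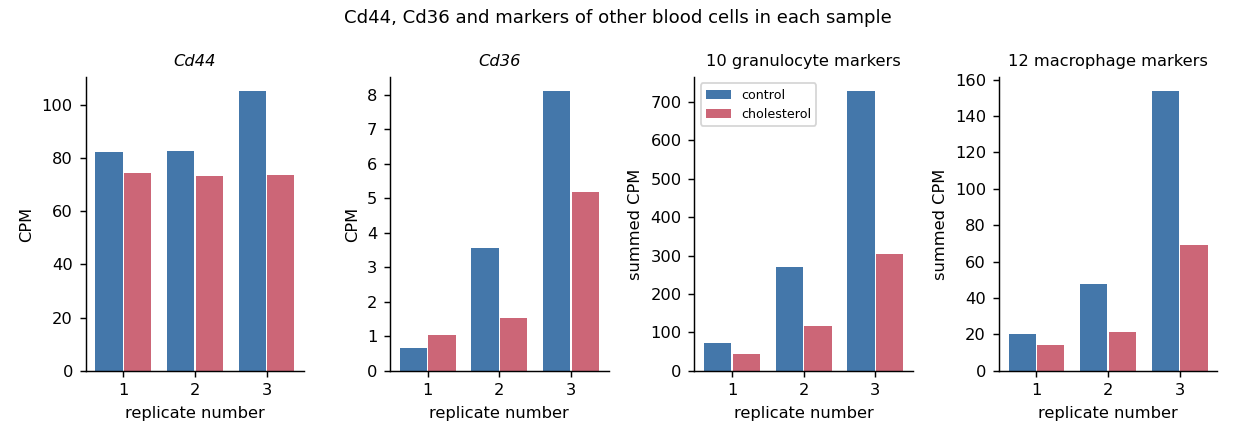
Bars give CPM of Cd44 and Cd36 and the summed CPM of 10 granulocyte and 12 macrophage markers by replicate number, control in blue and cholesterol in red. Cd44 differs most in pair 3 (105 and 73.4 CPM), and Cd36 and both marker sums are highest in the samples numbered 3.

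Cd24a was measured most precisely, from 92870 to 107000 expected counts per sample. It was at 5406, 5189 and 5184 CPM in the controls and at 4948, 4961 and 4747 CPM with cholesterol. All 3 controls were above all cholesterol samples in CPM, but in FPKM control 3 (2718) fell below cholesterol 1 and 2 (2756 and 2759), so the separation held on one scale and not on the other. The log2 fold change was −0.11 ± 0.06 (SE, edgeR adjusted p = 0.9998) and −0.11 ± 0.04 with the block (edgeR adjusted p = 0.112). The blocked 95% interval was −12.2% to −1.76%. Its gene lies at chr10:43579169-43584265 on the plus strand. Cd44 and Cd24a were the 2 of the 9 whose groups did not overlap in CPM. Among all genes tested this occurred in 8%, in 4.28% as lower and in 3.72% as higher with cholesterol.

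Cd47 measured 357, 400 and 438 CPM in the controls and 351, 377 and 441 CPM with cholesterol. The samples of the same number were close and the groups overlapped fully. Its log2 fold change was −0.03 ± 0.11 (SE, edgeR adjusted p = 0.9998), with a blocked interval of −7.88% to 3.71%. Icam4 measured 157, 145 and 149 CPM in the controls and 151, 162 and 135 CPM with cholesterol. Cholesterol 2 was the highest of the 6 and cholesterol 3 the lowest, so the controls lay inside the range of the cholesterol samples. Its log2 fold change was −0.01 ± 0.08 (SE, edgeR adjusted p = 0.9998), with a blocked interval of −8.47% to 7.45%. The mean differences of Cd47 and Icam4 turned from lower to higher on the FPKM scale, so no direction is given for either. Icam4 (chr9:21029432-21030596, plus strand) shares 658 bases of exon with Gm47079, a gene that is not among those measured, and reads of the overlap cannot be assigned to one of them.

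Kel, the Kell metalloprotease, measured 823, 849 and 971 CPM in the controls and 742, 820 and 919 CPM with cholesterol. It was lower with cholesterol in all 3 pairs, by 0.05 to 0.15 on the log2 scale, yet the groups overlapped because the samples numbered 3 were high in both. The log2 fold change was −0.09 ± 0.11 (SE, edgeR adjusted p = 0.9998) and −0.09 ± 0.04 with the block (edgeR adjusted p = 0.188). Without control 3 the value without the block was −0.015, without cholesterol 1 it was −0.018, and without cholesterol 3 it was −0.17. Xk, which encodes the protein disulfide-linked to KEL and was named after its values were seen, ranged from 290.5 to 325.1 CPM in the controls and from 301.1 to 318.5 CPM with cholesterol. Ermap, of the Scianna group, measured 1134, 1229 and 1333 CPM in the controls and 1137, 1232 and 1411 CPM with cholesterol. Samples of the same number were nearly equal for numbers 1 and 2, and the groups overlapped. Its log2 fold change was 0.03 ± 0.10 (SE, edgeR adjusted p = 0.9998), with a blocked interval of −3.52% to 7.98%. In direction, Kel, Cd44 and Cd24a were lower in all 3 pairs and Itga4 and Ermap higher in all 3. Among all genes tested 40.1% moved one way in all 3 pairs, 20.1% lower and 19.9% higher. The 9 erythroblast markers were all lower in the 3 pairs, and their sum differed by −0.29, −0.04 and −0.14 on the log2 scale in pairs 1, 2 and 3. The part of this in the values of Kel, Cd44 and Cd24a was not tested.

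**Figure D3:**
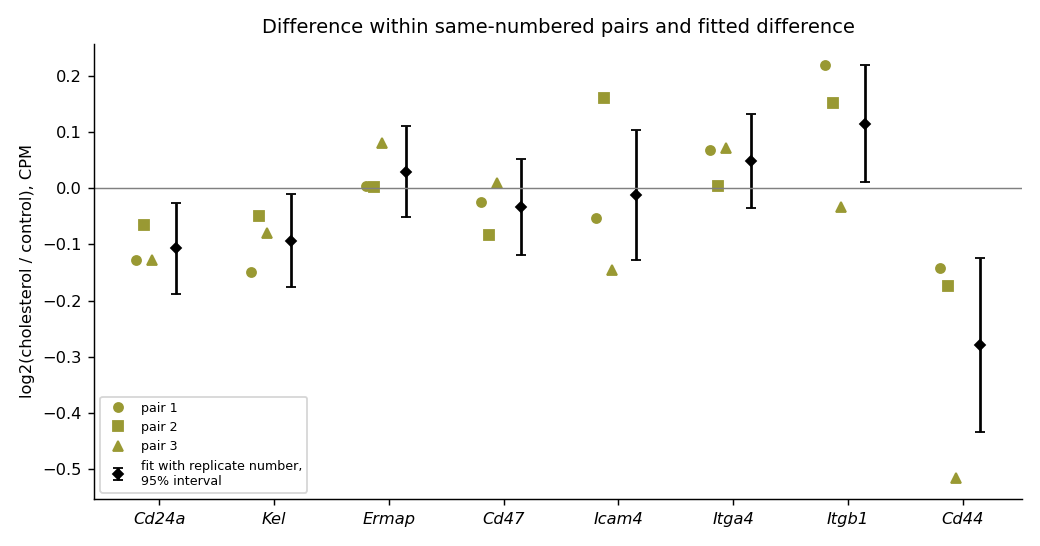
Log2 ratio of cholesterol to control CPM within each same-numbered pair (olive) and the fitted log2 fold change with the replicate number in the fit and its 95% interval (black), for all genes but Cd36. Cd44 is lower in every pair, most in pair 3 at −0.52, and the intervals of Ermap, Cd47, Icam4 and Itga4 include 0. The intervals are not adjusted for the number of genes tested. Of the genes shown whose intervals exclude 0, Cd44 alone passed the adjusted threshold in this fit.

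For most of the 9 genes the replicate number accounted for more of the variation than cholesterol. The number divides the samples into more classes than treatment does, so it would take the larger share even of random variation. The same shares were not computed over all genes. Of the sum of squares of log2 CPM over the 6 samples, the number took 96.2% for Cd47, 95.7% for Ermap, 91.7% for Itga4, 88.3% for Cd36, 83.2% for Kel and 80.7% for Itgb1. For Icam4 it took 40.8%, with 58.6% in neither term. Treatment took more than the number for Cd44 (58.1%) and Cd24a (77.5%). Cd47, Ermap, Kel and Itga4 shared an order, lowest in the samples numbered 1 and highest in those numbered 3 of both groups. The genes nearest to each in pattern had a Pearson r of 0.997 or more over the 6 samples, Snx21 for Cd47, Atf7 for Ermap, Runx2 for Kel and Tns1 for Itga4. The nearest for Cd44 was Rhbdf2 (r = 0.995), for Itgb1 Mre11a (r = 0.994), for Icam4 Pcnp (r = 0.994) and for Cd24a Gm20939 (r = 0.984). Each is the best of 11276 genes and a description only.

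**Figure D4:**
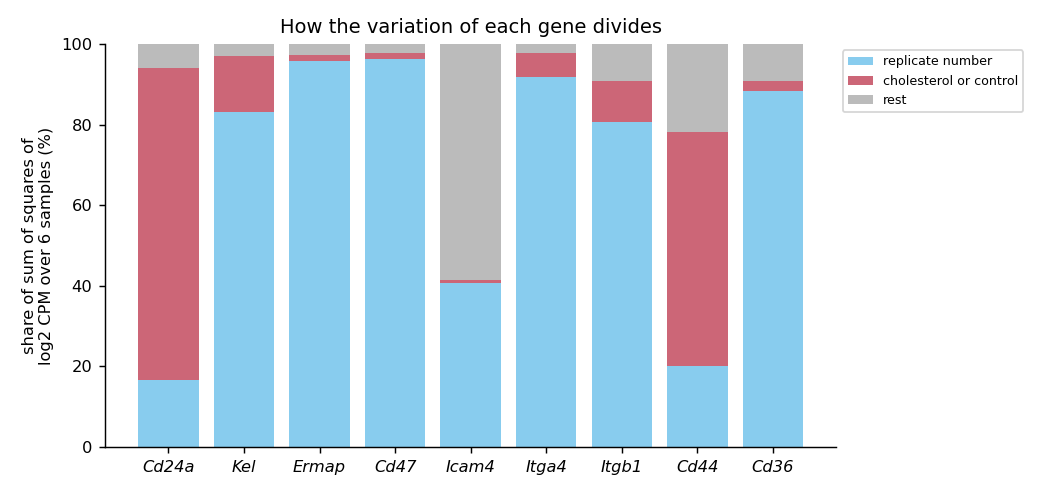
Share (%) of the sum of squares of log2 CPM over the 6 samples that goes with the replicate number (light blue), with cholesterol or control (red) and with neither (grey), for each gene. Replicate number takes 96.2% for Cd47, and treatment takes most for Cd24a (77.5%) and Cd44 (58.1%).

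Related genes were compared by lists. Of 23 other tested carriers of blood group antigens, 1 passed as lower in the blocked fit, Cd151, a tetraspanin that carries the Raph group, against 5.2% of all genes as lower, so the list does not stand apart from the background. Cd151 measured 21.0, 18.7 and 24.2 CPM in the controls and 16.3, 17.6 and 18.2 CPM with cholesterol, and its groups did not overlap (blocked log2 fold change −0.29 ± 0.08 (SE), edgeR adjusted p = 0.0338). In DESeq2 with the block it did not pass (adjusted p = 0.564), and none of the 23 did. The median log2 fold change of this list was −0.02 without the block, against −0.03 for the 9 genes and 0.01 for all genes tested. Slc4a1, which encodes the anion exchanger band 3 and was named after its values were seen, did not pass, with a blocked log2 fold change of −0.08 ± 0.04 (SE). None passed as higher.

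Among 12 other integrin subunits tested, 6 passed as lower in the blocked fit and none as higher, against 5.2% and 1.65% of all genes, and the list's median was −0.56 without the block, where none passed. The 6 were Itga2b, Itga6, Itgb5, Itgb7, Itgal and Itgam, the last 3 named after their values were seen. Itga2b, the megakaryocyte subunit αIIb that early erythroid cells also carry, measured 48.3, 38.8 and 42.7 CPM in the controls and 37.5, 32.1 and 37.2 CPM with cholesterol, without overlap (blocked log2 fold change −0.28 ± 0.06 (SE), edgeR adjusted p = 0.00538). Itgam, the αM subunit of granulocytes and macrophages, measured 3.34, 13.7 and 50.0 CPM in the controls and 1.68, 4.001 and 15.5 CPM with cholesterol (blocked −1.63 ± 0.11 (SE), edgeR adjusted p = 3.11e-08). It ranked the 6 samples in the same order as the granulocyte sum. Itgb7, the other β partner of α4, measured 20.9, 14.4 and 14.4 CPM in the controls and 16.6, 11.7 and 7.21 CPM with cholesterol (blocked −0.50 ± 0.12 (SE), edgeR adjusted p = 0.0377). In both groups Itgb7 was highest in the sample numbered 1, where the granulocyte sum was lowest. In DESeq2 with the block 3 of the 12 passed (2.53% of all genes), Itgal, Itgam and Itgb2, all subunits of leukocyte integrins. Itgb2 was also named after its values were seen. Itga2b (adjusted p = 0.181), Itga6 (0.380), Itgb5 (0.158) and Itgb7 (0.133) did not pass there. Without both samples numbered 3, 5 of the 12 passed in edgeR (6.52% of all genes). The part of other blood cells in the values of these subunits was not tested.

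Of 22 tested linkers and activators that join integrins to the cytoskeleton, 1 passed as lower in the blocked fit, Fermt3 (kindlin-3), named after its values were seen, which is no more than the 5.2% of all genes that passed as lower. The list's median was −0.13 without the block. Fermt3 measured 333, 304 and 267 CPM in the controls and 295, 261 and 249 CPM with cholesterol, with overlapping groups. It did not pass in DESeq2 with the block (adjusted p = 0.0668). Without both samples numbered 3, 3 of the 22 passed in edgeR (6.52% of all genes). Tln1, which encodes talin, measured 470, 493 and 472 CPM against 453, 446 and 437 CPM, without overlap, and did not pass (blocked edgeR adjusted p = 0.145).

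Of 12 tested ligands and counter-receptors, 4 passed as lower in the blocked fit, against 5.2% of all genes, and the list's median was −0.57 without the block. Sirpa, which encodes the macrophage receptor of CD47, measured 5.26, 14.6 and 53.6 CPM in the controls and 3.401, 5.68 and 17.9 CPM with cholesterol (blocked −1.36 ± 0.14 (SE), edgeR adjusted p = 7.89e-04). Calr, which encodes calreticulin, a signal for uptake at the cell surface, measured 386, 369 and 402 CPM against 334, 323 and 349 CPM, without overlap (blocked −0.20 ± 0.04 (SE), edgeR adjusted p = 0.00373). Thbs1, which encodes thrombospondin, a ligand of CD36 and CD47, measured 17.5, 31.2 and 88.6 CPM in the controls and 13.5, 13.7 and 23.4 CPM with cholesterol. It was lower in all 3 pairs, control 3 was far above the rest, the groups overlapped, and it did not pass (blocked −1.28 ± 0.42 (SE), edgeR adjusted p = 0.332). Siglec1 and Spp1 were the other two that passed, and Spp1 did not pass in DESeq2 with the block (adjusted p = 0.580). Vcam1, the main ligand of the α4β1 integrin, stayed at or below 1.402 CPM in every sample and did not pass. Sirpa and Siglec1 ranked the samples in the same order as the macrophage sum, of which Siglec1 is itself a part, and the part of macrophages in their values was not tested. Calr varied 1.25-fold between its lowest and highest sample. Sirpa, Siglec1, Spp1 and Vcam1 were named after their values were seen.

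Markers of early and late erythroid stages were counted in the same way. Of 9 early markers, 6 passed as lower in the blocked fit (Kit, Gata2, Cd34, Spi1, Fli1 and Lyl1), against 5.2% of all genes, with a list median of −1.02 without the block. Those that passed, other than Lyl1, had low means of 2.18 (Fli1) to 8.13 CPM (Spi1). Myc (mean 70.4 CPM), Cdk6 (27.2 CPM) and Myb (9.68 CPM) did not pass. Their blocked log2 fold changes were 0.08 ± 0.05, −0.09 ± 0.07 and −0.32 ± 0.11 (SE). In DESeq2 with the block 3 passed (2.53% of all genes), Gata2, Spi1 and Lyl1, while Kit (adjusted p = 0.316), Cd34 (0.135) and Fli1 (0.119) did not. Kit, the stem cell factor receptor, measured 2.58, 2.82 and 3.48 CPM in the controls and 1.97, 1.38 and 1.02 CPM with cholesterol, without overlap (blocked −1.02 ± 0.27 (SE), edgeR adjusted p = 0.0255). Gata2, a transcription factor that precedes GATA1, measured 6.22, 5.60 and 12.3 CPM against 2.37, 2.57 and 2.76 CPM, also without overlap (blocked −1.59 ± 0.19 (SE), edgeR adjusted p = 6.97e-05). Mast cells express both genes too, and the mast cell and basophil markers summed to 3.19, 7.73 and 31.9 CPM in the controls and 1.28, 2.47 and 5.27 CPM with cholesterol. Spi1, a transcription factor that myeloid cells also express, measured 3.84, 7.68 and 22.4 CPM against 2.51, 4.001 and 8.38 CPM, and ranked the 6 samples in the same order as the granulocyte and macrophage sums. Lyl1, at 209 to 295 CPM, was lowest in the samples numbered 3 of both groups, where those sums were highest. The part of other blood cells in the values of these markers was not tested, and Spi1, Lyl1, Cd34, Myc, Cdk6 and Myb were named after their values were seen. Of 22 late markers, 4 passed as lower and none as higher, against 5.2% and 1.65% of all genes, with a median of −0.06. They were Slc25a37, Alas2 and the haemoglobin genes Hba-a2 and Hbb-bs, and the same 4 passed in DESeq2 with the block (2.53% of all genes). Alas2 and Hbb-bs were named after their values were seen. Slc25a37, which encodes the mitochondrial iron importer mitoferrin, measured 3742, 3686 and 3762 CPM against 3213, 3233 and 3468 CPM (blocked −0.18 ± 0.04 (SE), edgeR adjusted p = 0.00860). Of the erythroblast markers used to check the label, 3 of 9 passed as lower (5.2% of all genes). They were Alas2, Hbb-bs and Tfrc, the transferrin receptor, and the same 3 passed in DESeq2 with the block (2.53% of all genes). Without both samples numbered 3 the counts passing in either direction were 4 early, 6 late and 5 erythroblast markers, against 6.52% of all genes. Of other cell types, 9 of 10 granulocyte, 6 of 9 macrophage, 3 of 3 mast cell, 1 of 9 megakaryocyte, 0 of 7 hepatocyte and 0 of 2 endothelial markers tested passed in the blocked fit, all as lower (5.2% of all genes), and no lymphoid marker reached the filter. In DESeq2 with the block 7 granulocyte, 4 macrophage and 3 mast cell markers passed, and no megakaryocyte marker, against 2.53% of all genes.

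**Figure D5:**
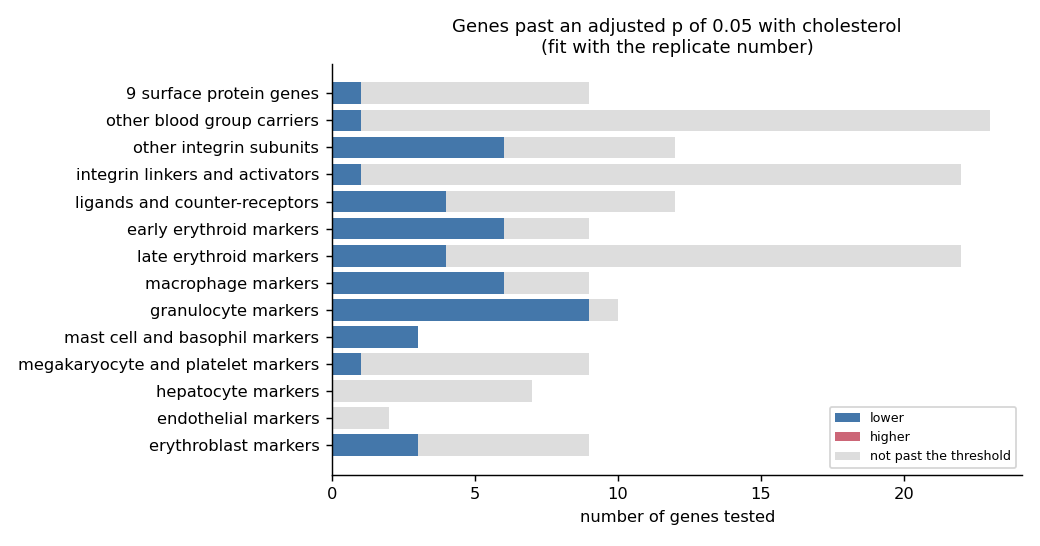
Number of genes tested in each list and, in blue, those past an adjusted p of 0.05 as lower with cholesterol when the replicate number was in the fit. None passed as higher. The 9 surface protein genes hold 1 such gene (Cd44), against 6 of 12 other integrin subunits, 9 of 10 granulocyte markers and 5.2% of all genes tested.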

How the data were processed

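RNA-seq of 3 control and 3 cholesterol samples was used, grouped by their labels. The authors deposited expected counts per gene (estimated counts that need not be whole), and a table of normalized values whose unit was inferred from its sums and ratios to be FPKM. The submitters' processing notes name HISAT2 2.0.4, Bowtie2 2.2.5, RSEM 1.2.12, DESeq2 1.4.5 and GRCm38.p6. Reads were single-end from oligo(dT)-selected RNA.

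Expected counts were rounded and analysed in R 4.3.3 with edgeR 4.0.16 (TMM, filterByExpr with a minimum count of 10 and a total of 15, robust quasi-likelihood test, two-sided, Benjamini-Hochberg over 11277 genes, threshold 0.05). CPM values use the same factors. For this cholesterol comparison the study's text names a gene set analysis, and no test of single genes was taken from it. The comparison fit had no covariate, and the same fit with the replicate number as a block was the alternative. The numbers were taken to pair the samples, since a control and the cholesterol sample of its number departed together from their groups' means (r = 0.772, 0.436 and 0.848 over genes, all above 0.1) and each control correlated best with its own number. For cholesterol sample 2 the margin was small, with r = 0.415 for control 1 against 0.436 for control 2. Nothing states what a number marks. DESeq2 1.42.0 and limma 3.58.1 on log2(FPKM + 1) were further alternatives, beside other filters and normalizations and leaving out samples. On data simulated from these samples (11144 genes), the fit without the block recovered 53 of 100 genes changed 2-fold and 13 of 100 changed 1.5-fold, and the blocked fit 98 and 88 with 7 false calls. The simulated counts were drawn from the blocked fit, so its higher recovery was built in and does not test the blocked calls. Changes were placed only in genes above a minimum mean count. Shared sequence was sought with BLAST+ in GENCODE transcripts at 98% identity over at least 50 bases.

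The 9 genes and all lists were chosen with earlier results of these data known. Named from each list were the 3 genes of smallest p without the block at a mean of at least 1 CPM, and a part of these is described.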

Additional observations from a re-analysis of the deposited data

How the results depend on the processing

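Of the 9 genes, none passed in any fit without the block, and the count with it was 1 with edgeR, with no filter on low counts, with TMM computed without globin genes and with a required fold of 1.2. Of all genes 6.85%, 7.25% and 6.54% passed in the first 3 of these, and the share at the required fold was not computed. The blocked count was 2 without both samples numbered 1 (Cd44 and Cd36), 0 without both numbered 2, 1 without both numbered 3 (Itgb1, higher) and 0 with upper quartile normalization, DESeq2 or limma. Of all genes 7.14%, 2.58% and 6.52% passed without both samples numbered 1, 2 and 3. With upper quartile normalization, DESeq2 and limma, each with the block, 6.07%, 2.53% and 0.0443% of all genes passed. The 2 scaling changes and the unfiltered fit with the block, and the left-out pairs for the other lists, were chosen after seeing the data. In the other lists 0 genes passed without the block, 1 with DESeq2, 40 with the block, 27 with DESeq2 and the block, 49 with no filter and the block, and 45, 21 and 43 with the block and without both samples numbered 1, 2 and 3. All were lower but 1 of the 49 and 3 of the 43, which were higher. The median log2 fold change of the 9 genes, −0.03, was 0.0032 with limma at either pseudocount and with the block at the larger one, −0.083 to 0.043 when single samples were left out, and −0.10 without both samples numbered 2. Signs turned for Cd47 (0.0032) and Icam4 (0.018) with limma, and for Icam4 without both samples numbered 1 (0.011) or 3 (0.052). Leaving out single samples spanned −0.013 to 0.11 for Itga4, −1.67 to 0.28 for Cd36, −0.13 to 0.043 for Cd47, −0.073 to 0.062 for Icam4, −0.054 to 0.10 for Ermap and −0.27 to 0.086 for the log2 Itga4 to Itgb1 ratio. Cd44, Cd24a, Kel and Itgb1 did not turn in sign under the 22 alternatives, but without single samples Kel spanned −0.17 to −0.015 and Itgb1 0.033 to 0.26. The cause of these changes was not tested. Over all genes the number passing was 1 without the block and 772 with it, and 5 in limma with the block. The width of the 95% intervals depended on the block: they ran from −31.7% to −1.71% without and −26% to −8.25% with it for Cd44, and −21.4% to 12.1% without and −11.5% to −0.707% with it for Kel. Cd36, at 13 to 156 counts a sample, had the fewest counts of the 9 genes.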
